A study of Mus musculus with 8 samples.

Results

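The high mobility group (HMG) proteins are small, abundant chromatin proteins that bend, loosen or bridge chromatin without reading a long sequence. The expression of 9 HMG genes was compared between 4 wild-type (WT) and 4 Dp1Tyb cultures of mouse embryonic fibroblasts (MEFs). The members were the rows of the count table whose Ensembl gene ID carries the symbol Hmgn1, Hmgn2, Hmgn3, Hmgn5, Hmgb1, Hmgb2, Hmgb3, Hmga1 or Hmga2, and all 9 were found among the 19493 endogenous gene rows and tested. Hmgn1 lies inside the stretch of chromosome 16 that Dp1Tyb cells hold in 3 copies, and the other 8 members lie on other chromosomes, outside the duplication, with Hmgn5 and Hmgb3 on the X. The comparison therefore asked whether these paralogues were expressed differently when Hmgn1 had an extra copy.

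All cultures came from E14.5 embryos of a strain whose label begins with C57BL/6J.129P2. By the methods, it had been backcrossed to the substrain C57BL/6JNimr. WT embryos carried no duplication, and Dp1Tyb embryos carried Dp(16Lipi-Zbtb21)1TybEmcf, a duplication from Lipi to Zbtb21. By the methods, MEFs were grown from embryos without head and viscera, were passaged, and received no treatment beyond trypsin for dissociation. The methods call the embryos littermates, but with a number of Dp1Tyb embryos that differs from the number of Dp1Tyb cultures here. A MEF culture is a mixture of the adherent cells of an embryo, and Dp1Tyb raises the dose of every gene of the duplicated stretch, so an effect of Hmgn1 alone cannot be told apart from that of its neighbours. The methods describe separate embryos, and the labels do not say which embryo gave which culture. ERCC spike-ins, synthetic transcripts of known amount, went into the lysate of a set number of cells.

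The libraries held between 17698900 and 26471758 counts, and every member had at least 199 raw counts in each library. The endogenous RNA per spike-in ranged from 0.688 in Dp1Tyb replicate 2 to 1.31 in Dp1Tyb replicate 4, relative to the geometric mean of all libraries, so the fold changes of the members are given both under scaling to the spike-ins (spike-in scaling) and under scaling to the endogenous genes (relative scaling). Levels in CPM are counts divided by the scaling factor of the library and by a constant common to all libraries. The 9 fibroblast markers (such as Col1a1, Vim and Pdgfra) summed to 22189.6 to 31709 CPM in WT and 25994 to 31505 in Dp1Tyb. A list of 4 macrophage markers (Ptprc, Adgre1, Csf1r and Cd68) summed to 84.0 to 102 CPM in WT and 46.5 to 72.5 CPM in Dp1Tyb, so these ranges did not overlap under relative scaling, whereas under spike-in scaling they did (72.5 to 121 and 37.9 to 87.4 CPM). All 4 were lower in Dp1Tyb with an unadjusted edgeR p under 0.05 under relative scaling (log2 fold change -0.87 to -0.60), beside 4.27% of all genes with such a p. Under spike-in scaling all 4 were lower and 1 had such a p (log2 fold change -0.76 to -0.48), beside 1.17% of all genes. None was called by edgeR under either scaling (smallest adjusted p = 0.0903, relative scaling). Endothelial, epithelial, neural and myogenic markers, 4 each, summed to at most 78.7, 14.8, 68.8 and 30.6 CPM in a library under relative scaling. Under spike-in scaling these maxima were 94.8, 14.8, 81.7 and 26.3 CPM, and the ranges of the genotypes overlapped under both. The 1 myogenic marker tested had a log2 fold change of 0.72 under relative and 0.78 under spike-in scaling. Its unadjusted edgeR p was under 0.05 under spike-in scaling only, and it was not called. The red cell markers Hba-a1, Hba-a2, Hbb-bs and Hbb-bt and the myogenic factors Myod1 and Myf5 had no row in the table. Xist, the RNA that coats an inactive X chromosome, had 36188 raw counts in WT replicate 2 and 38867 in Dp1Tyb replicate 1 and between 9 and 60 in the other 6 libraries. These were also the libraries with the highest and the lowest proliferation score, 6.70 and 4.48 log2 CPM, so the members' fold changes, ratios and relation to the score are given with and without this pair. The labels give no sex.

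The family falls into 3 subfamilies by the way the proteins touch chromatin. HMGN proteins bind the nucleosome core itself, between the DNA and the histones, and counteract the compaction brought by linker histone H1. HMGB proteins carry HMG boxes that bend DNA, and HMGB1 can also leave the cell and act as a danger signal. HMGA proteins use AT-hooks to bind the minor groove of AT-rich DNA, and Hmga2 is high in embryonic and proliferating mesenchymal cells and is repressed by the let-7 miRNAs.

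The HMGN genes were compared first through a part of their coding sequence that shows the kinship of the subfamily. This is the stretch of 10 codons in the annotated coding sequences, 30 bases long, that lies within the nucleosome-binding domain. It is shown because it is what Hmgn1 shares with the 3 paralogues, and capitals mark the bases that are the same in all 4 genes.
Hmgn1: GAGCCcaagcGccGcTCcGCgaGgcTGTCg
Hmgn2: GAGCCacagaGaaGaTCtGCgaGgtTGTCt
Hmgn3: GAGCCcacaaGacGgTCgGCcaGgtTGTCc
Hmgn5: GAGCCaaagaGaaGaTCaGCccGacTGTCt

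Of the 10 codons, 9 encoded the same residue in all 4 genes, whereas only 16 of the 30 bases were identical. Hmgn1 and Hmgn5 agreed at all 10 codons and at 20 bases, and the closest pair in DNA was Hmgn2 and Hmgn5 with 24 of 30. In GRCm38 the stretch lies on the minus strand in each case, split by at least 1 intron, within chr16:96127314-96127434 for Hmgn1 (codons 15 to 24), chr4:133966769-133966959 for Hmgn2 (codons 20 to 29), chr9:83114776-83120375 for Hmgn3 (codons 22 to 31) and chrX:109010860-109011424 for Hmgn5 (codons 13 to 22). The reading frames held 96, 90, 99 and 406 codons in Hmgn1, Hmgn2, Hmgn3 and Hmgn5, the last being extended by a long acidic tail.

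Kinship of sequence also bears on the counts, because reads with more than 1 alignment were discarded. Of the 100-base windows along the principal transcript, 2.46% in Hmgn1, 13.3% in Hmgn5, 18.3% in Hmgb3, 33.1% in Hmgb1, 47.0% in Hmgn2 and 59.9% in Hmga1 recurred without mismatch in transcripts of other annotated genes. In Hmgb2, 506 of 2529 windows did, and in Hmgn3 and Hmga2 none. Hmgb1 shared windows with 52 other genes, and the copy of Hmga1 was Hmga1b, a separate protein-coding row. Levels of Hmga1, Hmgn2 and Hmgb1 are therefore uncertain and may be understated against Hmgn1 and Hmga2, whereas the comparison between genotypes used the same rule in every library. Copies under other names, such as Gm10282 (548 windows of Hmgn2) and Gm21596 (764 windows of Hmgb1), were not looked up among the rows. Of 20 further annotated genes whose names begin with Hmgn, Hmgb or Hmga, 6 had a row in the table. Hmgb1-ps1, a processed pseudogene, had the most counts (1982 over the 8 libraries), followed by Hmgb1-ps3 (534), Hmga1b (406), Hmgb1-rs16 (287), Hmgb1-ps6 (98) and Hmgb1-ps9 (36), against 23660 for Hmgb1 and 47178 for Hmga1.

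Per length of exon, the members spanned more than an order of magnitude in MEFs. As RPKM (reads per kilobase of exon, scaled to a common library total) under relative scaling, the mean over all 8 libraries was 129 ± 44.9 (SD, n = 8) for Hmga1, 128 ± 32.9 for Hmga2 and 119.7 ± 33.7 for Hmgn1. By genotype, Hmgn1 came last of the 3 in WT (90.7, beside 128 for Hmga1 and 133 for Hmga2) and first in Dp1Tyb (149, beside 131 and 124). These levels overlapped: Hmga1 exceeded Hmga2 in 4 of 8 libraries, and Hmga2 exceeded Hmgn1 in 4 of 8. A gap followed, since the lowest library of Hmgn1, at 82.6 RPKM, was above the highest of Hmgn2, at 41.2 RPKM. The middle of the order was held by Hmgn2 (28.8 ± 8.22 RPKM), Hmgb1 (28.3 ± 6.29) and Hmgb2 (18.9 ± 7.37). Hmgn2 and Hmgb1 could not be ordered, with Hmgn2 higher in 5 of 8 libraries, whereas Hmgb1 was above Hmgb2 in all 8. Hmgn3 (9.10 ± 1.55), Hmgb3 (8.76 ± 3.68) and Hmgn5 (6.80 ± 1.60) closed the order with overlapping ranges. The order depends on the length used. All annotated exons together span 6772 bases in Hmga2, 2125 in Hmga1 and 3060 in Hmgn2. Their principal transcripts span 3710, 2001 and 1265 bases. The order by the length of the principal transcript was not computed.

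**Figure D1:**
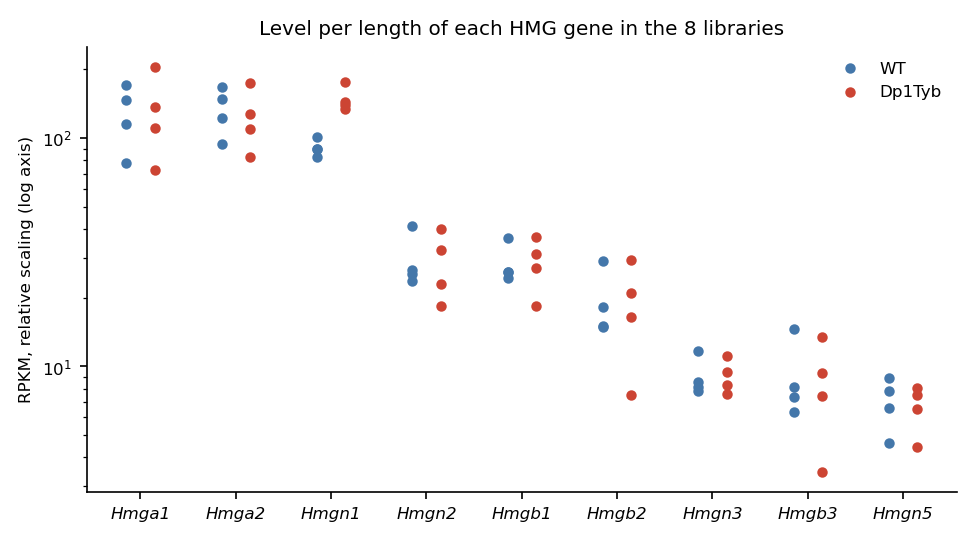
Level of each HMG gene per length of exon (RPKM, relative scaling, logarithmic axis) in each WT and Dp1Tyb library, ordered by the mean over the 8 libraries. Hmga1, Hmga2 and Hmgn1 lie above 72.7 RPKM in every library, and Hmgn1 is the member whose WT and Dp1Tyb points separate.

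Hmgn1 (ENSMUSG00000040681, chr16:96120618-96127729 on the minus strand of GRCm38) was higher in every Dp1Tyb culture than in any WT culture. Its normalised read count under relative scaling was 5557, 6782, 6035 and 6046 across WT replicates 1 to 4 and 9719, 11839, 9439 and 9047 across Dp1Tyb replicates 1 to 4, a mean of 6105 ± 505 for WT and 10011 ± 1249 for Dp1Tyb (SD, n = 4 each). Every Dp1Tyb library was above every WT library under either scaling, which held for 1.64% of all tested genes under relative and 0.285% under spike-in scaling. The log2 fold change was 0.71 (95% interval 0.45 to 0.98) under relative scaling and 0.80 (95% interval 0.17 to 1.43) under spike-in scaling, a 1.64-fold and a 1.74-fold higher level. Both intervals hold the log2 of 1.5, 0.58, that a ratio of 3 to 2 copies gives. edgeR's quasi-likelihood test gave Hmgn1 an unadjusted p of 1.25e-04 under relative scaling. It did not pass the Benjamini-Hochberg adjustment over 16470 genes (edgeR adjusted p = 0.164). Under spike-in scaling its p was 0.0129 and its adjusted p 1.00. DESeq2 with its own size factors over endogenous genes called it (log2 fold change 0.72, adjusted p = 9.07e-05), a call given to 0.363% of genes. DESeq2 with spike-in factors called 0 members and 0.0122% of genes, and, over the tools and settings tried for Hmgn1, its adjusted p ran from 9.07e-05 to 0.969 under relative scaling. The summed macrophage markers given above were lower in every Dp1Tyb than in every WT culture under relative scaling, and their part in the result was not tested.

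Of 6 genes that lie beside Hmgn1 in the duplication, 0 were called by edgeR and all 6 had a positive log2 fold change under both scalings. Of the 6, 4 had an unadjusted p under 0.05 under relative scaling and 3 under spike-in scaling, with a higher level in Dp1Tyb, beside the 1.74% and 0.85% of all genes. Every Dp1Tyb library was above every WT library in 3 of them under relative and 2 under spike-in scaling, beside 1.64% and 0.285% of all genes. Their median log2 fold change was 0.60 under relative and 0.70 under spike-in scaling, where those of all tested genes were 0.00607 and 0.11. Psmg1, a chaperone of proteasome assembly and the neighbour with the smallest p under relative scaling, averaged 337 ± 29.4 (SD, n = 4) normalised read counts for WT and 517 ± 38.9 for Dp1Tyb, a log2 fold change of 0.62 with an edgeR adjusted p of 0.228 (0.72 under spike-in scaling). Psmg1 was also the gene whose log2 CPM followed that of Hmgn1 most closely over the 8 libraries (r = 0.989), before Atp5o (r = 0.987) and Ltn1 (r = 0.986). All 3 lie on chromosome 16. These r values are a description, since the 8 points share the 2 genotypes.

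**Figure D2:**
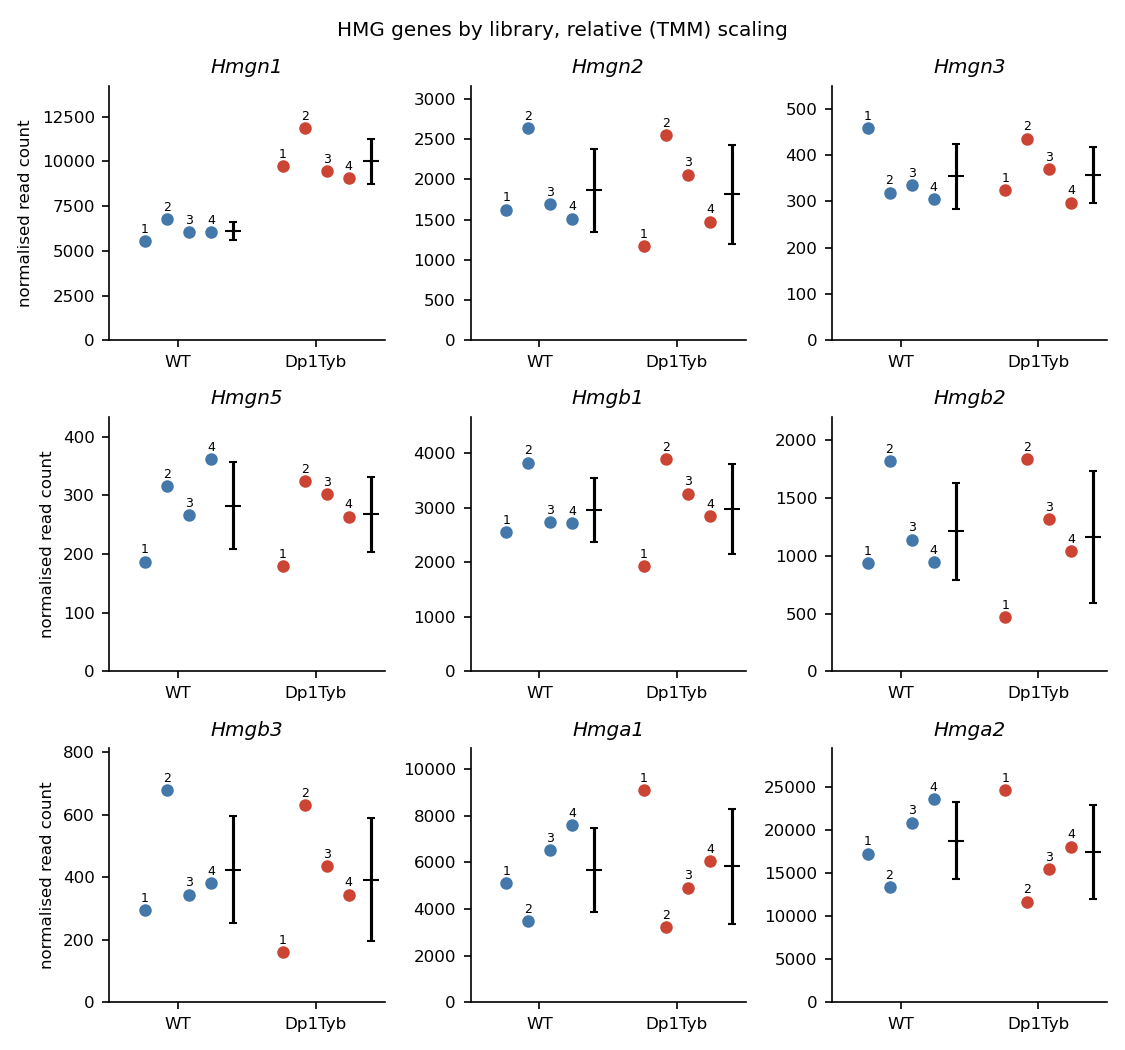
Normalised read count (relative scaling) of each HMG gene in each library, with the replicate number above each point and the group mean ± SD (n = 4) beside the points. The 4 Dp1Tyb points of Hmgn1 lie at 9047 or above and the 4 WT points at 6782 or below, whereas the groups overlap in the other 8 genes.

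No paralogue of Hmgn1 separated the genotypes. Of the 9 members, 0 were called by edgeR under either scaling. This is to be read against a background of 0.0182% of all tested genes called under relative and 0.0121% under spike-in scaling, and Hmgn1 was the 1 member with an unadjusted p under 0.05. Such a p was found for 4.27% of all genes under relative and 1.17% under spike-in scaling, and together with a higher level in Dp1Tyb for 1.74% and 0.85%. The WT and Dp1Tyb ranges of all 8 paralogues overlapped under both scalings, whereas all Dp1Tyb libraries lay below all WT libraries in 1.52% of genes under relative and 0.14% under spike-in scaling. Under relative scaling 3 of the 8 had a positive log2 fold change and the median was -0.05, beside 0.00607 for all genes. Under spike-in scaling 5 had a positive value and the median was 0.03, beside 0.11 for all genes. The 8 unadjusted p ran from 0.673 to 0.967 with edgeR under relative scaling and from 0.497 to 0.978 under spike-in scaling.

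Among the HMGN paralogues, the nearest to Hmgn1 in structure, Hmgn2 (chr4:133964738-133968650, minus strand) had a normalised read count under relative scaling of 1625, 2632, 1689.5 and 1512 across WT replicates 1 to 4 and 1172, 2547, 2059.7 and 1475 across Dp1Tyb replicates 1 to 4. Its highest libraries were replicate 2 of either genotype and its lowest was Dp1Tyb replicate 1. The log2 fold change of Hmgn2 was -0.04 (95% interval -0.61 to 0.52) under relative and 0.01 (95% interval -0.61 to 0.63) under spike-in scaling. Hmgn3 (chr9:83109948-83146685, minus strand), a subfamily member known for its role in endocrine cells, was at 457, 319, 335 and 304 across WT replicates 1 to 4 and 325, 435, 369 and 297 across Dp1Tyb replicates 1 to 4. WT replicate 1 and Dp1Tyb replicate 2 were the highest and the groups overlapped. The log2 fold change of Hmgn3 was 0.01 (95% interval -0.37 to 0.39) under relative scaling, the narrowest interval of the 8 paralogues, and 0.05 (95% interval -0.62 to 0.72) under spike-in scaling. Antisense transcripts overlap exons of Hmgn3, and the strand option of the counting is not given in the sources used here. Hmgn5 (chrX:109004534-109013404, minus strand), which is X-linked, was at 187, 316, 266 and 361 across WT replicates 1 to 4 and 179, 324, 302 and 263 across Dp1Tyb replicates 1 to 4, lowest in replicate 1 of both genotypes. Its log2 fold change was -0.08 (95% interval -0.61 to 0.45) under relative scaling and -0.01 (95% interval -0.70 to 0.68) under spike-in scaling.

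Hmgn1 made up a larger share of the summed HMGN RPKM in Dp1Tyb. The share was 66.4, 63.8, 68.3 and 69.0% across WT replicates 1 to 4 and 82.3, 74.9, 74.0 and 78.3% across Dp1Tyb replicates 1 to 4. Hmgn2, Hmgn3 and Hmgn5 together summed to 41.8, 57.2, 41.6 and 40.4 RPKM in the WT and 31.1, 59.0, 49.1 and 37.2 RPKM in the Dp1Tyb libraries, in the same order, so these ranges overlapped. With Hmgn1 added the subfamily summed to 124 to 158 RPKM in WT and 172 to 235 RPKM in Dp1Tyb. These shares and sums depend on the exon lengths used and are a description with no test.

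The HMGB genes varied widely between cultures of the same genotype. The normalised read count of Hmgb1 (chr5:149046702-149184489, minus strand) under relative scaling was 2559, 3830.0, 2734 and 2723 across WT replicates 1 to 4 and 1929, 3889, 3263 and 2842 across Dp1Tyb replicates 1 to 4. Its log2 fold change was 0.01 (95% interval -0.46 to 0.47) under relative scaling and 0.07 (95% interval -0.54 to 0.69) under spike-in scaling. Hmgb2 (chr8:57511907-57515999, plus strand), an HMG-box protein of dividing cells, was at 938, 1819.7, 1140.2 and 948 across WT replicates 1 to 4 and 470.2, 1836, 1319 and 1039 across Dp1Tyb replicates 1 to 4. The highest library of Hmgb2 had 3.90 times the count of the lowest, and both were Dp1Tyb cultures. The log2 fold change of Hmgb2 was -0.06 (95% interval -0.87 to 0.76) under relative and -0.02 (95% interval -0.64 to 0.61) under spike-in scaling. Hmgb3 (chrX:71555918-71560676, plus strand), an X-linked HMGB gene of embryonic and progenitor cells, was at 296, 678, 344 and 381 across WT replicates 1 to 4 and 161, 632, 435 and 345 across Dp1Tyb replicates 1 to 4. It followed the same order at the extremes, with replicate 2 of both genotypes high and Dp1Tyb replicate 1 low. Its log2 fold change was -0.12 (95% interval -0.98 to 0.74) under relative and -0.09 (95% interval -0.76 to 0.57) under spike-in scaling.

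The HMGA genes ran in the opposite order to the HMGB genes at the extremes. The normalised read count of Hmga1 (chr17:27556497-27563674, plus strand) under relative scaling was 5097, 3470.1, 6507 and 7599 across WT replicates 1 to 4 and 9079, 3229, 4913 and 6062 across Dp1Tyb replicates 1 to 4. Its log2 fold change was 0.04 (95% interval -0.66 to 0.74) under relative and 0.22 (95% interval -0.41 to 0.84) under spike-in scaling. Hmga2 (chr10:120361275-120476469, minus strand) was at 17314, 13369, 20904 and 23622 across WT replicates 1 to 4 and 24657, 11708, 15482 and 18112 across Dp1Tyb replicates 1 to 4, the highest counts of the family. Dp1Tyb replicate 1, the lowest library for Hmgb1, Hmgb2 and Hmgb3, was the highest for both HMGA genes, and Dp1Tyb replicate 2 was the lowest. The log2 fold change of Hmga2 was -0.10 (95% interval -0.64 to 0.43) under relative and 0.06 (95% interval -0.57 to 0.69) under spike-in scaling. Exons of Hmgb1, Hmga1 and Hmga2 overlap genes on the opposite strand, as in Hmgn3. In bulk RNA, fewer cells of a kind and less RNA per cell cannot be told apart.

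How large a change of a paralogue the data still allow is set by these intervals. Under relative scaling the upper bounds of Hmgn2, Hmgn3, Hmgn5, Hmgb1 and Hmga2 lay below the log2 of 1.5, and those of Hmgb2, Hmgb3 and Hmga1 above it. Under spike-in scaling only the interval of Hmgb3, whose upper bound was 0.57, left it out. The spike-in fit gave all members a like SE, from 0.315 (Hmgb1) to 0.352 (Hmgn5). Their within-group SD of log2 counts under that scaling ran from 0.288 (Hmgn1) to 0.841 (Hmga1). The spike-in intervals thus rest on a spread shared over genes. They may be too narrow for variable members such as Hmgb3 (SD 0.576) and Hmga1. The lowest bound was -0.98 (Hmgb3, relative scaling) and the highest 0.84 (Hmga1, spike-in scaling), so a lack of change was not shown for these genes. The within-group SD of log2 counts under relative scaling was 0.147 for Hmgn1 and 0.253 to 0.696 for the paralogues, beside a median of 0.212 over the 10970 genes averaging 100 counts or more. Under relative scaling all 8 paralogues were thus more variable between cultures of 1 genotype than the median gene. Under spike-in scaling, where that median was 0.428, Hmgn2 (0.338), Hmgn3 (0.388) and Hmgb1 (0.340) lay below it.

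**Figure D3:**
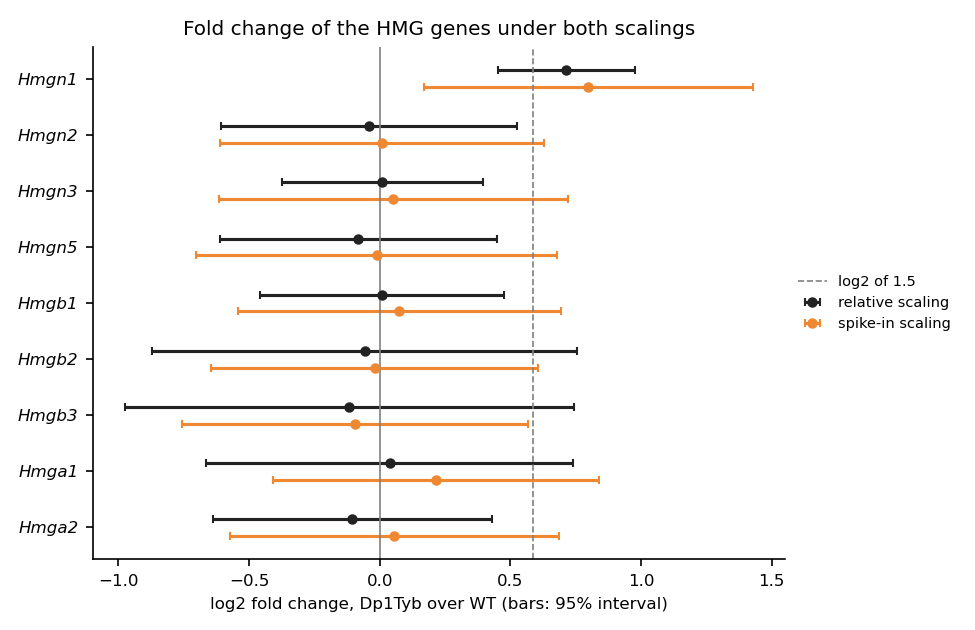
Log2 fold change of each HMG gene, Dp1Tyb over WT, with its 95% interval from edgeR under relative and spike-in scaling (n = 4 libraries each), and lines at 0 and at the log2 of 1.5. The intervals of Hmgn1 lie above 0 under both scalings, and those of the other 8 genes span 0.

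The near-zero fold changes rested in part on the pair of libraries with high Xist. In the remaining 6 libraries, 3 of each genotype, an alternative chosen after the data had been seen, Hmgn1 had a log2 fold change of 0.78 (edgeR adjusted p = 0.0738) under relative scaling. Under spike-in scaling it was 0.74, and its unadjusted p, 0.0814 with edgeR, was no longer under 0.05 (adjusted p = 1.00). Hmgn2, Hmgb1, Hmgb2 and Hmgb3 then stood at 0.34, 0.32, 0.47 and 0.47, and Hmga1 and Hmga2 at -0.43 and -0.45. Hmgn3 and Hmgn5 were at 0.00922 and 0.13. None of the 9 was called, beside 0.109% of all genes tested (smallest adjusted p of a paralogue 0.341, edgeR). Hmgn1, Hmgb1, Hmgb2 and Hmga2 had an unadjusted p under 0.05, as did 13.5% of all genes tested in these libraries. The proliferation score, described further on, differed between the genotypes by 0.592 log2 CPM in the same 6 libraries, with the 3 Dp1Tyb cultures above the 3 WT cultures.

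Hmgn1 was also set against its own family without any scaling, by the ratio of Hmgn1 to each other member within a library. The log2 ratio of raw counts of Hmgn1 to Hmgn2 was 1.77, 1.37, 1.84 and 2.00 across WT replicates 1 to 4 and 3.05, 2.22, 2.20 and 2.62 across Dp1Tyb replicates 1 to 4, so every Dp1Tyb library was above every WT library. The mean difference was 0.78 ± 0.24 (SE). The same separation held against Hmgn3 (0.69 ± 0.19), Hmgn5 (0.78 ± 0.24), Hmgb1 (0.73 ± 0.20) and Hmgb2 (0.87 ± 0.42). For each of these 5 ratios the exact two-sided permutation test over 70 assignments gave p = 0.0286, the smallest it can give, and p = 0.0457 after Benjamini-Hochberg adjustment over the 8 ratios. Sign flips over the 4 same-numbered pairs cannot give an exact p below 0.125, and none of the 5 passed under them. The differences against Hmgb3 (0.91, exact p = 0.0571), Hmga2 (0.83, exact p = 0.0857) and Hmga1 (0.71, exact p = 0.229) were of like size but the groups overlapped. All 8 ratios share the Hmgn1 counts and are not independent. Of all other tested genes, 58.9% had a ratio from Hmgn1 that separated the genotypes in this way, so 5 of 8 members is a share near the background and says nothing particular to the family.

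Leaving out 1 library ended the call for Hmgb2 in 5 of 8 cases (any WT library or Dp1Tyb replicate 1, exact p up to 0.114), for Hmgn5 in 5 of 8 (WT replicate 4 or any Dp1Tyb library, exact p = 0.0571), for Hmgn2 without WT replicate 2 (exact p = 0.0857) and for Hmgn3 without Dp1Tyb replicate 4 (exact p = 0.0571), and in no case for Hmgb1. Dp1Tyb replicate 1 carried much of the ratio to the HMGB genes. Without it the difference against Hmgb2 was 0.50 and that against Hmgb3 0.54. In the 6 libraries with low Xist the differences were 0.34 against Hmgb2, 0.34 against Hmgb3, 0.47 against Hmgb1 and 0.47 against Hmgn2, and 1.24 and 1.23 against Hmga1 and Hmga2, where 3 libraries against 3 cannot give an exact p below 0.1. Dp1Tyb replicate 2 moved the ratio to Hmga1, which was 0.38 without it.

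**Figure D4:**
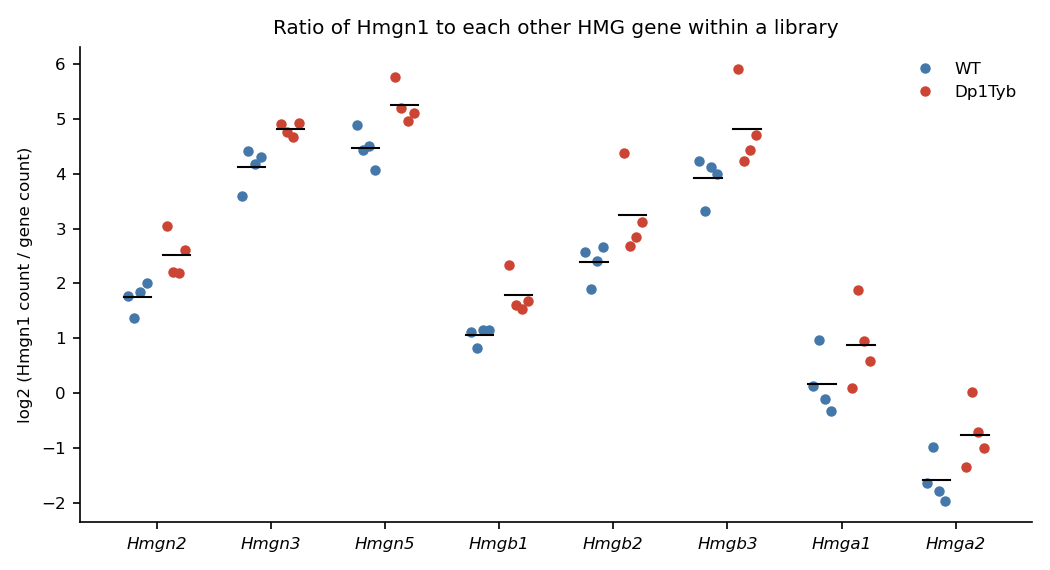
Log2 ratio of the raw count of Hmgn1 to that of each other HMG gene within a library, for the 4 WT and the 4 Dp1Tyb libraries, with bars at the group means. The groups are apart for Hmgn2, Hmgn3, Hmgn5, Hmgb1 and Hmgb2 and overlap for Hmgb3, Hmga1 and Hmga2.

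Several members varied with a proliferation score of the cultures, as did many other genes. The score, the mean log2 CPM of 18 genes of DNA replication and mitosis such as Mki67, Top2a and Mcm2, none of them a member, was 5.56, 6.70, 5.70 and 5.66 across WT replicates 1 to 4 and 4.48, 6.65, 6.29 and 5.76 across Dp1Tyb replicates 1 to 4. The score overlapped between the genotypes (difference -0.11 log2 CPM, exact two-sided permutation p = 0.857) but spanned 2.22 log2 units over the libraries. Over the 8 libraries Hmgb1 followed it with Pearson's r = 0.994 (exact permutation p = 7.44e-05) and Spearman's rho = 0.976 (exact permutation p = 3.97e-04). Hmgb2 had r = 0.990 and rho = 0.952, Hmgb3 had r = 0.985 and rho = 0.929, and Hmgn2 had r = 0.954 and rho = 0.833. Their exact permutation p of r were 1.98e-04, 2.23e-04 and 7.94e-04, and those of rho 0.00114, 0.00223 and 0.0154. The HMGA genes ran the other way, with r = -0.904 and rho = -0.833 for Hmga1 and r = -0.875 and rho = -0.833 for Hmga2 (exact permutation p of r 0.00161 and 0.00384, of rho 0.0154 each). After Benjamini-Hochberg adjustment over the 9 relations computed, the exact permutation p of r was 6.70e-04 for Hmgb1, Hmgb2 and Hmgb3, 0.00179 for Hmgn2, 0.00290 for Hmga1 and 0.00577 for Hmga2, and that of rho was at most 0.0231 for these 6. Of all tested genes, 26.8% had an exact p of r under 0.05, as did 7 of the 9 members. An r at least as far from 0 as that of Hmga2, the weakest of these 6, was found in 8.95% of all tested genes. This limit was taken from the members, so the share of members past it is no test. Marker sums of other cell types also differed between libraries at the ends of the score. For WT replicate 2, Dp1Tyb replicate 2 and Dp1Tyb replicate 1 in turn, myogenic markers summed to 24.5, 30.6 and 3.33 CPM. Neural markers were at 68.8, 66.3 and 34.4, and epithelial ones at 14.8, 11.2 and 3.09. Endothelial markers ran the other way (33.0, 31.6 and 78.7), and macrophage markers in neither order (84.0, 55.2 and 72.5). Their part in these relations was not tested.

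Without WT replicate 2 and Dp1Tyb replicate 1, the libraries farthest from the median score, r was 0.992 for Hmgb1, 0.964 for Hmgb2, 0.946 for Hmgb3, 0.947 for Hmgn2, -0.837 for Hmga1 and -0.864 for Hmga2. Within the 4 WT and within the 4 Dp1Tyb libraries these 6 genes kept their sign, from -0.832 to 0.998 in WT and from -0.967 to 0.997 in Dp1Tyb. Under spike-in scaling of both measures r was 0.806 for Hmgb1 (exact permutation p = 0.0182) and 0.884 for Hmgn2 (exact permutation p = 0.00548). It was 0.993 for Hmgb2 and 0.978 for Hmgb3. The relation of the HMGA genes was weaker (Hmga1 r = -0.526, exact permutation p = 0.177, and Hmga2 r = -0.474, exact permutation p = 0.237). Hmgn5 had r = 0.736 (exact permutation p = 0.0372) and rho = 0.595 (exact permutation p = 0.132), and its r fell to 0.474 without that pair. It was 0.721 without WT replicate 2 alone and 0.504 without Dp1Tyb replicate 1 alone, so most of the fall comes from the latter. The relation of Hmgn3 did not pass the test (r = 0.237, exact permutation p = 0.571; rho = -0.0476, exact permutation p = 0.935). The Hmgn1 levels of the genotypes lie apart, so an r over all libraries mixes the groups. As deviations from the genotype means, Hmgn1 and the score had r = 0.588 over the 8 libraries (exact permutation p = 0.132). Within the 4 WT libraries its r was 0.921, and within the 4 Dp1Tyb libraries 0.463.

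**Figure D5:**
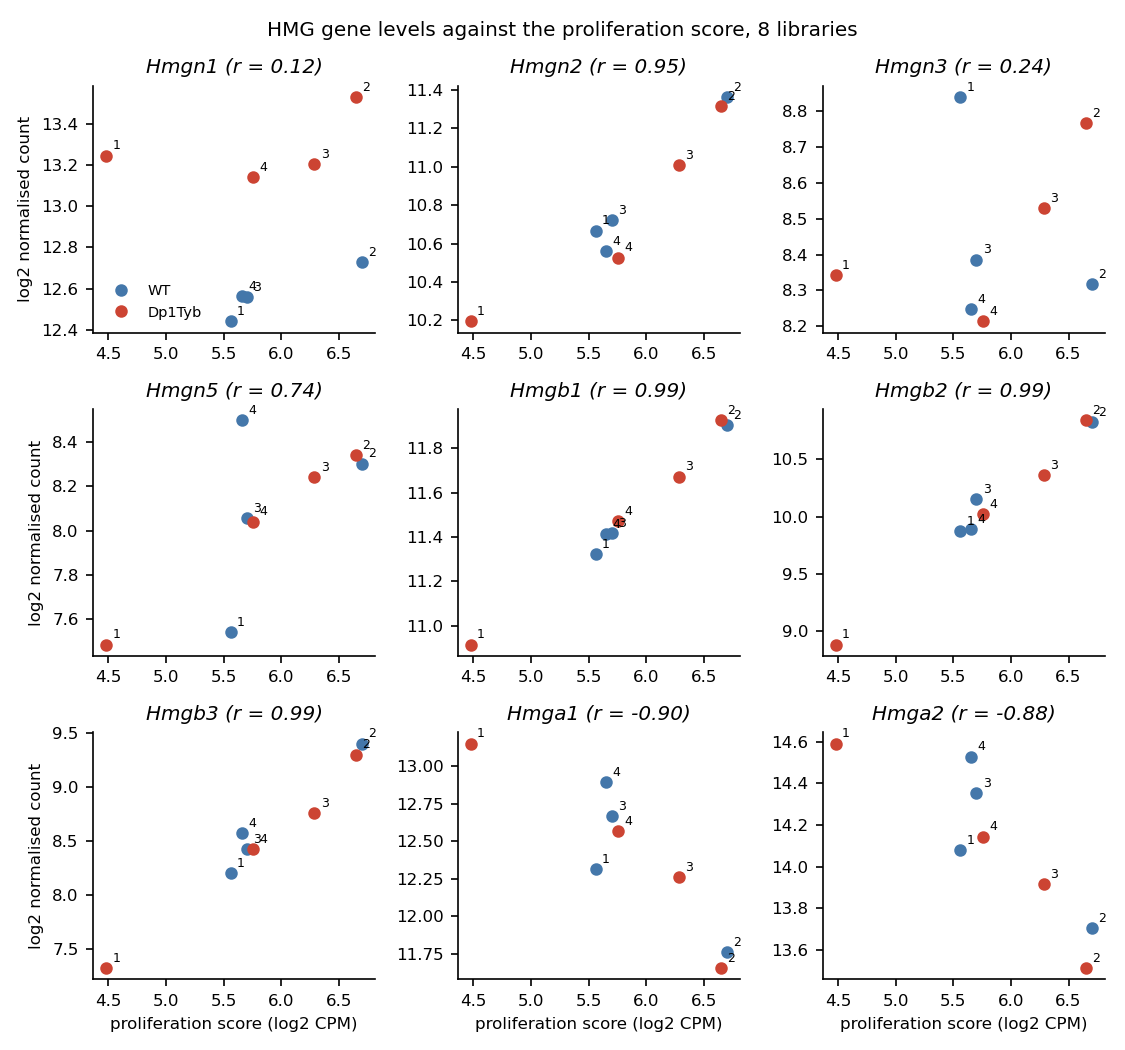
Log2 normalised count (relative scaling) of each HMG gene against the proliferation score (mean log2 CPM of 18 genes) in the 8 libraries, with replicate numbers and Pearson's r over the 8. Hmgb1, Hmgb2, Hmgb3 and Hmgn2 rise along the score and Hmga1 and Hmga2 fall. Under spike-in scaling their r was 0.806, 0.993, 0.978, 0.884, -0.526 and -0.474 in that order. The Dp1Tyb points of Hmgn1 lie above its WT points at every score.

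The genes most like Hmgb2 over the libraries, among all those tested, were Ncapg2 (r = 0.994), a condensin subunit, Blm (r = 0.993), a helicase of DNA repair, and Ercc6l (r = 0.993), a helicase that acts at mitotic centromeres. Among those most like Hmga2 were 2810029C07Rik (r = 0.992) and Orai2 (r = 0.992), a subunit of calcium channels. These r values, picked from the coefficients of all tested genes in 8 libraries, are given as a description.

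Since members of the family moved together over the cultures, their promoters were read for short motifs. RefSeq start sites (GRCm38.p6) matched 8 of the 9 members, with Hmgn3 unmatched, and the 250 bases before each start were searched on both strands for CCAAT, the site of NF-Y, for TTTGAA, the cell cycle genes homology region (CHR), and for GGGCGG, a GC box. Of 32851 promoters of the same length, 33.8% held CCAAT, 16.0% TTTGAA, 5.55% both and 32.7% GGGCGG. Hmgb2 and Hmgb3 were the members with both CCAAT and TTTGAA. The 3 promoters below are shown to set these beside that of the duplicated gene, Hmgn1, with CCAAT and TTTGAA, or their reverse complements, in capitals.
Hmgn1: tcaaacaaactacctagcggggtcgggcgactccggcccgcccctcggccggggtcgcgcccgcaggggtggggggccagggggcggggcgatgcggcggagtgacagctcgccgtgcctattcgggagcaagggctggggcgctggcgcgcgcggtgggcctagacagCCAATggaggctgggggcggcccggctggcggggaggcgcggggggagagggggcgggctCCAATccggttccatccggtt
Hmgb2: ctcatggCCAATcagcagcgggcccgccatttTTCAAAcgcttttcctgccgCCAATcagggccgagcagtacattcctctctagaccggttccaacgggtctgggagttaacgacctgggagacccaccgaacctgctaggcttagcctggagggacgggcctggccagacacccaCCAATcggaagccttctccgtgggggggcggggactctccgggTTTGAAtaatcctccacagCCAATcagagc
Hmgb3: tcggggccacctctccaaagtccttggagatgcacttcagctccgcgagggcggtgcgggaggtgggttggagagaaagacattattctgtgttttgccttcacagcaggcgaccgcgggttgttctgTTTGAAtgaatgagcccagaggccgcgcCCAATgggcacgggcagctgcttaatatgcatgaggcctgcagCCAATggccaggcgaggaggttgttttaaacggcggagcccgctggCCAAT

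The stretches are chr16:96127726-96127975 on the minus strand, chr8:57511593-57511842 on the plus strand and chrX:71555667-71555916 on the plus strand, each read 5′ to 3′ towards the start site. Hmgn1 held 2 CCAAT, 0 TTTGAA and 4 GGGCGG and had a GC content of 76.0%. Hmgb2 held 4 CCAAT and 2 TTTGAA, and Hmgb3 held 3 and 1. Hmgn5 had 2 CCAAT, and 1 of the pair of Hmgb1 starts had 3. GGGCGG was found in 7 of the 8 matched members, in all but Hmgn5. CCAAT and TTTGAA were not found in the windows of Hmgn2, Hmga1 and Hmga2. A match is a run of letters and not a bound site, and no measurement of binding was made in these cells.

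Genes around the family were counted in the same way, beside the 0.0182% (relative scaling) and 0.0121% (spike-in scaling) of all genes that were called and the 4.27% and 1.17% with an unadjusted p under 0.05, and nothing is read from counts near these shares. Of 21 other HMG-box proteins, 19 were tested and 0 were called in either direction under either scaling, with 0 at an unadjusted p under 0.05. Their median log2 fold change was -0.03 under relative and 0.07 under spike-in scaling. Ubtf, the HMG-box activator of ribosomal RNA genes, had the smallest p under relative scaling, with 2269 ± 262 normalised read counts in WT and 2084 ± 224 in Dp1Tyb (log2 fold change -0.12, edgeR adjusted p = 1.00, and -0.0187 under spike-in scaling). Of 24 linker histones and chromatin architectural proteins, which share chromatin with the HMG proteins, 0 were called and the median was -0.00534 under relative and 0.07 under spike-in scaling. H1fx, a replication-independent linker histone, had the smallest p under relative scaling, with 71.4 ± 11.6 normalised read counts in WT and 48.6 ± 14.8 in Dp1Tyb (log2 fold change -0.56, edgeR adjusted p = 1.00, and -0.43 under spike-in scaling). It was the 1 gene of that list with an unadjusted p under 0.05 under relative scaling (0.0497), and none had one under spike-in scaling.

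Of 9 receptors and partners of HMGB1, 0 were called and 0 had an unadjusted p under 0.05, with a median log2 fold change of -0.05 under relative and 0.08 under spike-in scaling. Becn1, an autophagy protein that binds HMGB1, had the smallest p under relative scaling, with 746 ± 44.7 normalised read counts in WT and 852 ± 98.9 in Dp1Tyb (log2 fold change 0.19, edgeR adjusted p = 1.00, and 0.27 under spike-in scaling). Of 8 genes of the HMGA2 and let-7 axis, 6 were tested, 0 were called and 0 had an unadjusted p under 0.05, and the median was -0.03 and 0.09 under the respective scalings. Trim71, an RNA-binding protein and target of let-7, had the smallest p under relative scaling, with 14.7 ± 3.73 normalised read counts in WT and 12.1 ± 5.63 in Dp1Tyb (log2 fold change -0.32, edgeR adjusted p = 1.00, and -0.21 under spike-in scaling). Lin28a and Lin28b, which block let-7 maturation, were not among the tested genes. All 18 proliferation genes were tested, 0 were called and 0 had an unadjusted p under 0.05, with medians of 0.02 and 0.04. Tyms, the enzyme of thymidylate synthesis, had the smallest p under relative scaling, with 779 ± 186 normalised read counts in WT and 725 ± 259 in Dp1Tyb (log2 fold change -0.10, edgeR adjusted p = 1.00, and -0.0652 under spike-in scaling). Each median is to be read beside that of all genes, 0.00607 under relative and 0.11 under spike-in scaling.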

How the data were processed

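RNAseq of 4 WT and 4 Dp1Tyb MEF cultures with ERCC spike-ins was analysed from raw counts. By their methods, the authors trimmed reads with TrimGalore, aligned them to GRCm38 plus spike-ins with TopHat2 2.0.12, discarded reads with several alignments and counted with htseq-count; the annotation release and strand option are not given in the sources used here. The deposited count table holds whole, unnormalised counts for 19493 genes and 63 spike-ins, with at least 15 counts a row over the libraries. The deposited normalised counts and the authors' DESeq2 table of fold changes and p-values were not used.

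Genes kept by filterByExpr (16470, 99.9% of endogenous counts) were tested with edgeR 4.0.16 (quasi-likelihood, two-sided, R 4.3.3). Factors were median-of-ratios factors over spike-ins (spike-in scaling) or TMM factors over endogenous genes (relative scaling). The study also normalised these data to the spike-ins and compared this with relative normalisation. Calls were made where the Benjamini-Hochberg adjusted p was under 0.05. Intervals are 95%. Normalised counts are counts divided by these factors. CPM carried a pseudocount of 0.5 in the proliferation score, and exon lengths for RPKM and positions came from GENCODE M21 (GRCm38). Single values were compared with exact permutation tests. Alternatives used DESeq2 1.42.0, limma 3.58.1 (voom), other filters, factors and pseudocounts, a replicate block and left-out libraries. Genes named are the members, the smallest p of each list, the 3 profiles nearest to Hmgn1, Hmgb2 and Hmga2, and other Hmgn, Hmgb and Hmga rows. 1 of these profiles is not reported here. The members and lists were chosen with earlier results of these data known. Precision is limited by the spread between cultures rather than by depth. The p-values set a difference against such a spread. In the edgeR fits that spread is shared in part over genes, and under spike-in scaling almost entirely.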

Additional observations from a re-analysis of the deposited data

Results flagged for a closer look

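In 7 of 54 groups of 4 libraries examined, 1 library stood apart by Dixon's test, which compares its gap to the nearest library with the group's range. Chance alone flags about 1 group in 20 and the groups share libraries. WT replicate 2 stood apart under relative scaling in Hmgn2 (gap ratio 0.842, 2632 normalised read counts beside 1512 to 1689.5), in Hmgb1 (0.863, 3830.0 beside 2559 to 2734), in the log2 ratio of Hmgn1 to Hmgb1 (0.901, 0.82 beside 1.12 to 1.15) and in the proliferation score (0.877, 6.70 beside 5.56 to 5.70 log2 CPM). Under spike-in scaling, Dp1Tyb replicate 1 stood apart in Hmgb2 (0.846, 566 beside 1262 to 1389) and Hmgb3 (0.911, 194 beside 434 to 458), and Dp1Tyb replicate 2 in Hmgn3 (0.971, 299 beside 389 to 391).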

How the results depend on the processing

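No member was called by edgeR or limma under either scaling in any alternative, including each left-out library (0 to 0 members), and 1 member, Hmgn1, was called by DESeq2 under relative scaling (log2 fold change 0.72). Hmgn1 kept its direction in all alternatives, from 0.62 to 0.78 under relative and 0.67 to 0.91 under spike-in scaling with 1 library left out. The 8 paralogues, never called, changed sign in many alternatives. Under relative scaling with 1 library left out, the log2 fold change was Hmgn2 -0.25 to 0.18, Hmgn3 -0.10 to 0.16, Hmgn5 -0.23 to 0.0711, Hmgb1 -0.15 to 0.17, Hmgb2 -0.36 to 0.22, Hmgb3 -0.44 to 0.22, Hmga1 -0.26 to 0.24, Hmga2 -0.32 to 0.0465. Under spike-in scaling it was Hmgn2 -0.15 to 0.15, Hmgn3 -0.10 to 0.34, Hmgn5 -0.16 to 0.27, Hmgb1 -0.0767 to 0.20, Hmgb2 -0.16 to 0.22, Hmgb3 -0.28 to 0.14, Hmga1 -0.13 to 0.52, Hmga2 -0.21 to 0.32. Signs also turned under relative scaling with upper-quartile factors (Hmgn3 -0.0423, Hmgb1 -0.0384 and Hmga1 -0.0000532), limma (Hmgb1 -0.0148 and Hmga1 -0.00715), the replicate block (Hmgb1 -0.0165 and Hmga1 -0.00455) and in the 6 libraries with low Xist (Hmgn2 0.34, Hmgn5 0.13, Hmgb2 0.47, Hmgb3 0.47 and Hmga1 -0.43). Under spike-in scaling they turned with only spike-ins of at least 100 counts (Hmgn2 -0.00198), limma (Hmgn5 0.0240 and Hmga2 -0.0266), the replicate block (Hmgn5 0.0226 and Hmga2 -0.0267) and with low Xist (Hmgn3 -0.0700, Hmgn5 0.10, Hmgb2 0.41, Hmgb3 0.37, Hmga1 -0.34 and Hmga2 -0.38). The cause was not tested.

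Deviations from the group means correlated between same-numbered libraries in replicates 1, 2 and 4 (0.366, 0.524 and 0.327, the highest value for each of these libraries) but not in replicate 3 (0.0297), and the labels tie the numbers to nothing shared, so they were not treated as pairs. As sign flips over 4 same-numbered pairs, which cannot give an exact p below 0.125, the replicate block left the Hmgn1 ratios at Hmgn2 0.78, Hmgn3 0.69, Hmgn5 0.78, Hmgb1 0.73, Hmgb2 0.87 past no threshold. The block raised the count of genes called from 3 to 7 under relative and from 2 to 9 under spike-in scaling, DESeq2 called 54 under relative scaling, limma 5 and 7, and at least 10 counts in every library 0 and 0. With 1 library left out the ratios ran Hmgn2 0.60 to 0.88, Hmgn3 0.52 to 0.79, Hmgn5 0.61 to 0.92, Hmgb1 0.54 to 0.81, Hmgb2 0.50 to 1.06, Hmgb3 0.54 to 1.11, Hmga1 0.38 to 0.98, Hmga2 0.57 to 1.04. The exact p was then over 0.05 for Hmgn5 (0.0571) without WT replicate 4 or any 1 Dp1Tyb library, Hmgb2 (0.0571 to 0.114) without any 1 WT library or Dp1Tyb replicate 1, Hmgn2 (0.0857) without WT replicate 2 and Hmgn3 (0.0571) without Dp1Tyb replicate 4. With low Xist, where an exact p cannot pass the threshold, they were Hmgn2 0.47, Hmgn3 0.76, Hmgn5 0.60, Hmgb1 0.47, Hmgb2 0.34, and with 5 counts added the ratio to Hmgb3 (0.90) passed (exact p = 0.0286). The genotype difference of the proliferation score ran -0.40 to 0.33 with 1 library left out, and was 0.59 with low Xist. The relation to the score with 1 library left out ran Hmgn1 -0.22 to 0.61, Hmgn2 0.94 to 0.98, Hmgn3 -0.00567 to 0.46, Hmgn5 0.50 to 0.90, Hmgb1 0.99 to 1.00, Hmgb2 0.98 to 1.00, Hmgb3 0.96 to 0.99, Hmga1 -0.94 to -0.87, Hmga2 -0.93 to -0.85. It was lost for Hmgn5 with spike-in scaling (0.54), mitosis genes only (0.69) and low Xist (0.47) and in 6 of 8 fits with 1 library left out (without WT replicate 2 or 3 or any 1 Dp1Tyb library, exact p up to 0.261), and for Hmga1 (-0.53) and Hmga2 (-0.47) with spike-in scaling. For Hmgn1 with low Xist it was 0.89, where both measures were higher in every Dp1Tyb than in every WT library, so that it mixes the groups.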

Other observations

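Rows of the table named as copies of Hmgb1 and Hmga1 differed in their counts over the cultures. Hmgb1-ps1 had 166, 332, 222, 217 raw counts across WT replicates 1 to 4 and 203, 339, 289, 214 in Dp1Tyb replicates 1 to 4, highest in replicate 2 of both genotypes like Hmgb1 itself. Hmga1b had 44, 34, 57, 57 and 101, 29, 43, 41, highest in Dp1Tyb replicate 1 and lowest in Dp1Tyb replicate 2 like Hmga1. These counts are not scaled to depth. Hmgb1-rs16, in contrast, was lowest in Dp1Tyb replicate 2 with 15 counts and had 46 in Dp1Tyb replicate 1. Whether these reads came from the copies or from the parent genes was not tested.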
